A study of Homo sapiens with 32 samples.

Results

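The ZFP36 family of mRNA decay factors has 3 members in these data, *ZFP36*, *ZFP36L1*, and *ZFP36L2*, each found by its symbol among 25498 genes in the deposited tables. All 3 were among the 16995 genes with enough counts to be tested. The members were chosen by their EGF and NRG-1 values at 4 hours, so that difference is described below without a test. LNCaP is an established androgen receptor–positive prostate cancer line, so all results stand for 1 cell line. Cells were kept in FBS, in charcoal-stripped serum (CSS), which is depleted of androgens and other lipophilic hormones, or in CSS to which 100 ng/mL EGF or NRG-1 was added for 5 minutes, 1 hour, or 4 hours. EGFR is the receptor of EGF. NRG-1 signals through HER3 and HER4, and HER2 can pair with each of these receptors. Each of the 8 groups had 4 RNA-seq libraries, with replicates 1 and 2 in batch 1 and replicates 3 and 4 in batch 2. Whether the replicates were separate cultures is not given in the labels, so *P* values measure the spread between these libraries, which may be partly technical.

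Library totals ran from 63822654 to 92401724 counts, with a median of 77866194. All 10 LNCaP markers examined were present in every library, at 3.01 TPM or more. Of 13 markers of immune, endothelial, stromal, and basal cells, 8 never exceeded 12 counts in a library and 5 (*CD68*, *VWF*, *COL1A1*, *ACTA2*, and *KRT14*) did, reaching at most 19.81 TPM. The 13 summed to 15.6 to 17.9 TPM in CSS, 12.8 to 18.2 and 15.2 to 18.5 TPM at 5 minutes, 21.5 to 29.3 and 15.8 to 21.0 TPM at 1 hour, and 28.7 to 35.6 and 20.6 to 26.9 TPM at 4 hours (EGF and NRG-1, respectively), and to 12.4 to 14.9 TPM in FBS. In edgeR, the macrophage marker *CD68* rose in the mean of both ligands at 4 hours (log2 1.71), from 3.53 CPM in CSS to 14.4 CPM with EGF and 9.16 CPM with NRG-1. *ACTA2*, a smooth muscle actin gene, rose at 1 hour of EGF (log2 0.94) and NRG-1 (log2 0.45) and in the 4-hour mean (log2 0.75), and the endothelial *VWF* fell at 4 hours (log2 -1.08). In FBS the basal keratin *KRT14* was higher (log2 3.84) and *COL1A1* lower (log2 -0.64) than in CSS. The leukocyte markers *PTPRC*, *CD3E*, and *LYZ* were among the 8. The part of these markers in the results below was not tested.

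The members of this family carry a pair of CCCH zinc fingers that bind AU-rich elements in the 3′ UTR of short-lived mRNAs and recruit the CCR4-NOT deadenylase, after which the message is decapped and degraded. ZFP36, also called tristetraprolin, is the product of an immediate early gene and restrains inflammatory transcripts such as TNF. ZFP36L1 and ZFP36L2 share the RNA-binding fingers and are known for roles in development and lymphocytes. Kinases downstream of p38 and ERK phosphorylate these proteins, which then bind 14-3-3 proteins and lose decay activity, and the phosphatase PP2A counters this. Protein amount and phosphorylation were not measured here.

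The mRNAs of the family themselves carry the kind of element that the proteins recognize. In the Ensembl canonical transcript of each member, the 3′ UTR held 3 copies of the heptamer TATTTAT. The UTRs were 708 bases long in *ZFP36*, 1871 in *ZFP36L1*, and 1917 in *ZFP36L2*. Among coding genes with a 3′ UTR within 10% of these lengths, 21.0%, 40.2%, and 40.8% held at least 1 copy, and 1.61%, 5.09%, and 5.33% held 3 or more. The 30-base windows below are those with the most heptamer bases, with the heptamer in capitals, written 5′ to 3′ on the strand of the gene. They lie in the 3′ UTR, within exon 2 of 2 in each gene, at chr19:39409188-39409217 (plus strand) for *ZFP36*, chr14:68788293-68788322 (minus strand) for *ZFP36L1*, and chr2:43223399-43223428 (minus strand) for *ZFP36L2* of GRCh38 (GENCODE annotation).
ZFP36: ccttTATTTATgacgacttTATTTATtcta
ZFP36L1: aattttgttcaTATTTATcgggatgacaaa
ZFP36L2: tgttcatactgTATTTATcaagtatgatga
In *ZFP36* 2 of the copies fell within a single window, whereas the windows of *ZFP36L1* and *ZFP36L2* held 1 each. For *ZFP36L1* and *ZFP36L2* several windows tied, so the window shown does not mark a cluster of copies. The match is a description of the letters, not of binding.

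The 3 members differed in how much of each was present before stimulation. TPM, which corrects for transcript length, was used to compare genes. In CSS, *ZFP36L1* was the most abundant member at 34.0 ± 3.52 TPM (SD, n = 4), and *ZFP36* and *ZFP36L2* lay together at 9.73 ± 0.805 and 9.46 ± 1.38 TPM. The family summed to 53.2 ± 4.97 TPM in CSS, of which *ZFP36L1* made up 63.9%, *ZFP36* 18.3%, and *ZFP36L2* 17.8%. After 1 hour of EGF the sum was 192 ± 20.2 TPM, and *ZFP36* was 61.1% of it. After 1 hour of NRG-1 the sum was 152 ± 31.1 TPM, and *ZFP36* was 62.3% of it. At 4 hours the make-up of the family differed between the ligands. *ZFP36* was 55.5% ± 2.64 of a sum of 89.1 ± 7.19 TPM with EGF and 31.9% ± 2.92 of a sum of 53.3 ± 9.33 TPM with NRG-1, where *ZFP36L1* was again the largest share at 47.6%. In FBS the sum was lowest, 33.4 ± 7.34 TPM, with *ZFP36L1* at 51.8%.

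**Figure D1:**
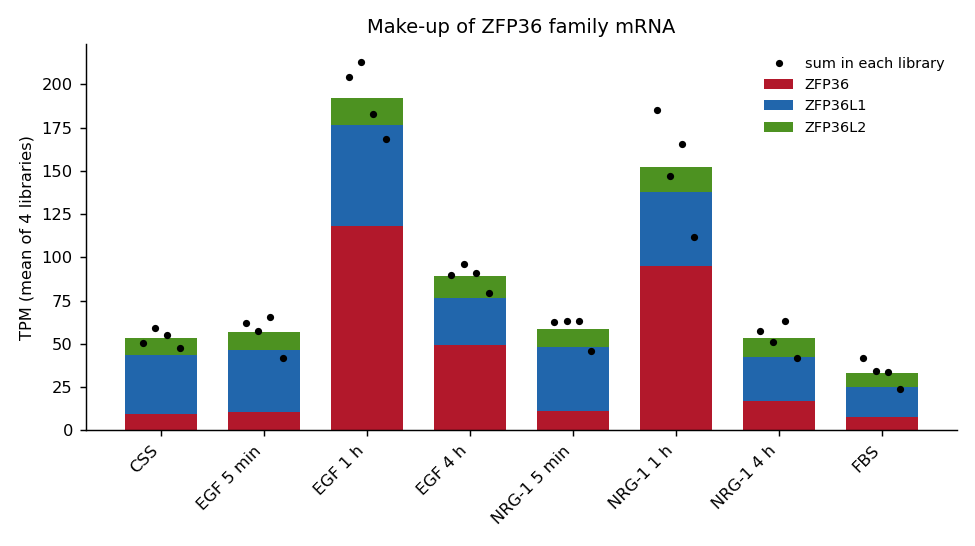
Mean TPM of *ZFP36*, *ZFP36L1*, and *ZFP36L2* stacked for each of the 8 groups, with a point for the summed TPM of each library (n = 4). *ZFP36* is the largest part at 1 hour with either ligand and at 4 hours with EGF, and *ZFP36L1* is the largest part in the other groups.

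*ZFP36* was the member with the widest range. Within a gene, levels are given as CPM, the counts scaled to a common library size after TMM normalization. The CSS libraries held 9.04, 8.92, 9.18, and 8.49 CPM of *ZFP36* (replicates 1 to 4). After 1 hour of EGF the libraries held 117, 111, 97.1, and 94.9 CPM, and after 1 hour of NRG-1 109, 90.0, 89.9, and 72.8 CPM. Every 1-hour library lay above every CSS library with either ligand, and the ranges of the ligands overlapped. In the edgeR quasi-likelihood fit, *ZFP36* rose 11.7-fold with EGF (log2 3.55, SE 0.11, adjusted *P* = 4.36e-20) and 10.1-fold with NRG-1 (3.34, SE 0.11, adjusted *P* = 2.24e-19). It ranked 12th and 10th by *P* among the 16995 genes in these comparisons, which share their CSS libraries. *ZFP36* was called in both batches when each was fitted alone.

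*ZFP36L1*, the most abundant member before stimulation, moved by less. CSS libraries held 55.2, 64.0, 64.7, and 61.6 CPM of *ZFP36L1*. EGF for 1 hour gave 98.0, 107, 103, and 98.8 CPM, and NRG-1 for 1 hour gave 77.5, 70.6, 93.2, and 77.4 CPM. Both sets lay above the CSS range, and the EGF libraries lay above the NRG-1 libraries without overlap. The rise was 1.66-fold with EGF (log2 0.73, SE 0.09, adjusted *P* = 9.19e-07) and to 130% of CSS with NRG-1 (log2 0.38, SE 0.09, adjusted *P* = 0.00891). The NRG-1 call was lost without NRG-1 1-hour replicate 3 (log2 0.29, adjusted *P* = 0.0622) or CSS replicate 1 (log2 0.33, adjusted *P* = 0.0508), in batch 2 alone (log2 0.43, adjusted *P* = 0.415), and with limma on TPM (log2 0.30, adjusted *P* = 0.361).

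*ZFP36L2* shifted in the same direction at 1 hour. CSS libraries held 21.1, 21.0, 18.6, and 17.2 CPM of *ZFP36L2*. EGF gave 35.7, 35.7, 30.9, and 27.4 CPM, and NRG-1 gave 37.0, 35.7, 27.8, and 23.1 CPM. In every group batch 1 tended to sit higher, and within each batch the 1-hour libraries lay above CSS. The rise was 1.66-fold with EGF (log2 0.73, SE 0.08, adjusted *P* = 4.56e-08) and 1.57-fold with NRG-1 (log2 0.65, SE 0.08, adjusted *P* = 6.28e-07). The NRG-1 call did not pass in batch 2 alone (log2 0.50, adjusted *P* = 0.149). Thus all 3 members rose at 1 hour with each ligand, where 6% of all genes tested rose with EGF and 4.45% with NRG-1. With a log2 fold change beyond 1 also required, the rule used for DEGs, 1 member (*ZFP36*) passed with each ligand, where 1.46% and 0.806% of genes were higher by this rule.

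**Figure D2:**
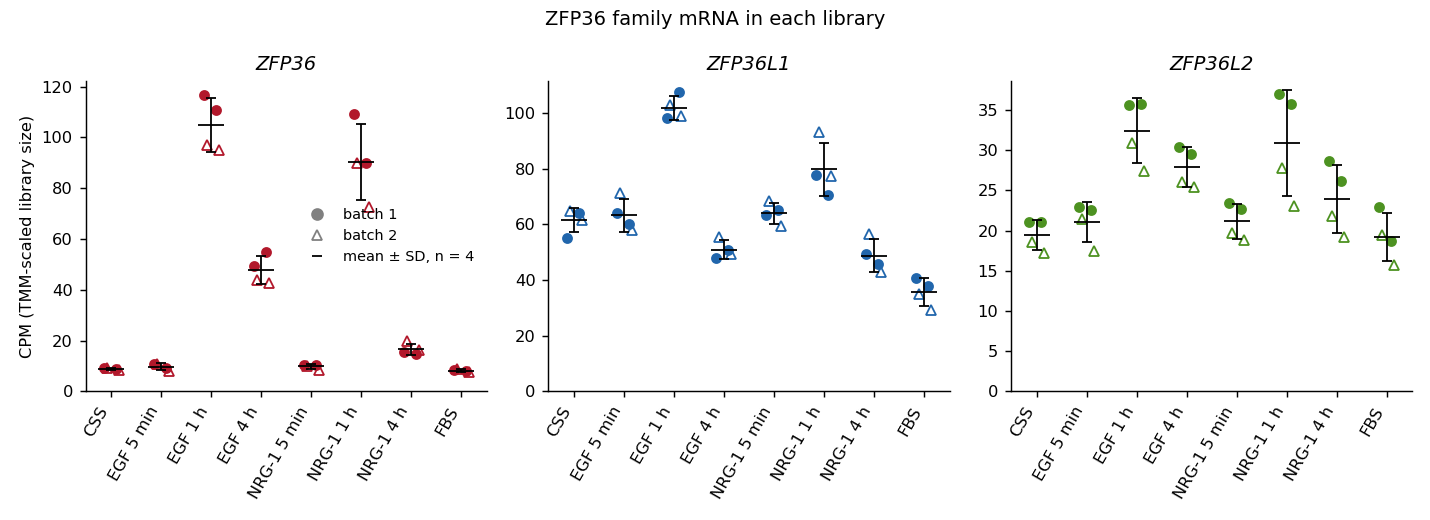
CPM of each family member (y axis, from 0, scaled separately for each gene) in all 32 libraries by group; filled circles are batch 1, open triangles batch 2, and black lines the mean ± SD of 4 libraries. *ZFP36* runs from about 8 CPM in FBS to 117 CPM after 1 hour of EGF, with EGF above NRG-1 at 4 hours, and *ZFP36L1* is lowest in FBS.

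At 5 minutes no member passed the test. EGF gave 10.9, 9.33, 10.6, and 8.11 CPM of *ZFP36* and NRG-1 gave 10.4, 10.3, 10.2, and 8.37 CPM, ranges that overlap CSS. The fitted log2 differences from CSS were 0.13 and 0.14 for *ZFP36*, 0.04 and 0.06 for *ZFP36L1*, and 0.11 and 0.12 for *ZFP36L2* (EGF and NRG-1, respectively). Within same-numbered pairs *ZFP36L2* was above CSS in 4 of 4 with EGF (ratios from 1.01 to 1.15) and 4 of 4 with NRG-1 (1.06 to 1.11), and *ZFP36* in 3 of 4 with each. None of the 3 members passed with either ligand (adjusted *P* = 1 in edgeR and in DESeq2, unadjusted *P* from 0.15 to 0.648), and 0.00588% and 0% of all genes did. The intervals (95%) of the *ZFP36* differences reached from -0.08 to 0.34 and from -0.07 to 0.35.

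By 4 hours the members had parted. The mean of both ligands at 4 hours was compared with CSS, a contrast that does not use the difference between the ligands. This contrast, and the one with 1 hour below, do use the 4-hour libraries by which the members were chosen. Their *P* values may therefore not be free of that choice. *ZFP36* was still 3.15-fold above CSS (log2 1.66, SE 0.10, adjusted *P* = 2.31e-14) and *ZFP36L2* 1.32-fold above (log2 0.40, SE 0.07, adjusted *P* = 1.8e-05), whereas *ZFP36L1* had fallen to 81.1% of CSS (log2 -0.30, SE 0.08, adjusted *P* = 0.00223). The *ZFP36L1* call was lost in batch 2 alone (log2 -0.29, adjusted *P* = 0.164). Thus 2 members were higher and 1 lower, in a comparison where 25.1% of all genes tested were higher and 26% lower, so that passing alone says little about the family. Against the mean of both ligands at 1 hour, *ZFP36* stood at 28.9% (log2 -1.79, SE 0.07, adjusted *P* = 3.93e-18), *ZFP36L1* at 55.3% (log2 -0.86, SE 0.07, adjusted *P* = 6.03e-12), and *ZFP36L2* at 81.9% (log2 -0.29, SE 0.06, adjusted *P* = 6.73e-05). All 3 members fell from 1 to 4 hours, where 26.4% of all genes did. For *ZFP36L2* the fall did not pass in batch 2 alone (log2 -0.23, adjusted *P* = 0.117).

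The ligands are described separately at 4 hours. EGF left *ZFP36* at 49.4, 54.9, 44.1, and 42.7 CPM, and NRG-1 left it at 15.4, 14.8, 19.9, and 16.2 CPM. The lowest EGF library was above the highest NRG-1 library, and both sets lay above CSS. The fitted difference was 2.87-fold (log2 1.52, SE 0.10), with EGF 5.34-fold and NRG-1 1.86-fold above CSS. Replicate by replicate the EGF to NRG-1 ratio was 3.22, 3.70, 2.22, and 2.64, and the fitted log2 difference was 1.79 in batch 1 alone and 1.28 in batch 2 alone. These values chose the family and are given without a test.

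In the same libraries *ZFP36L1* and *ZFP36L2* showed smaller ligand differences. *ZFP36L1* lay at 47.8, 50.9, 55.5, and 49.2 CPM with EGF and 49.4, 45.9, 56.7, and 43.0 CPM with NRG-1, a log2 difference of 0.06 (SE 0.09), with EGF higher in 2 of 4 same-numbered pairs. *ZFP36L2* lay at 30.4, 29.5, 26.1, and 25.4 CPM with EGF and 28.6, 26.1, 21.8, and 19.2 CPM with NRG-1, a log2 difference of 0.23 (SE 0.08), with EGF higher in 4 of 4 pairs. The ranges of the ligands overlapped for both genes.

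How much of the 1-hour rise was left at 4 hours can be read within each replicate number. For *ZFP36*, 40.5% ± 3.27 (SD, n = 4) of the rise over CSS was left with EGF and 9.69% ± 3.42 with NRG-1. The 4 EGF values ran from 37.5% to 45.1% and the 4 NRG-1 values from 6.31% to 13.2%. For *ZFP36L2* the parts left were 65.8% ± 9.91 and 37.5% ± 6.67. *ZFP36L1* was below its CSS level at 4 hours in 4 of 4 replicates with either ligand, so no part of its rise was left.

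At the earlier times, which the rule for the members did not name, EGF and NRG-1 were compared with a test. The members were chosen with earlier results of these data known. These tests, the 1-hour tests against CSS, and the tests of the 4-hour mean may therefore not be free of that choice. At 5 minutes the log2 differences were -0.01, -0.02, and 0.00 for *ZFP36*, *ZFP36L1*, and *ZFP36L2* (adjusted *P* = 1 for each, unadjusted *P* from 0.851 to 0.968), and 0% of all genes passed. At 1 hour they were 0.21 (SE 0.10, adjusted *P* = 0.6), 0.35 (SE 0.09, adjusted *P* = 0.0642), and 0.08 (SE 0.08, adjusted *P* = 0.667). None of the 3 members thus passed in the main edgeR fit, which has no replicate block and where 1.06% of genes passed. The unadjusted *P* values at 1 hour were 0.0414 for *ZFP36* and 0.000744 for *ZFP36L1*. *ZFP36L1* was higher with EGF in 4 of 4 same-numbered pairs, with ratios from 1.10 to 1.52, and passed with the replicate number as a block (log2 0.36, SE 0.07, adjusted *P* = 0.00268), in DESeq2 (log2 0.36, adjusted *P* = 0.0174), and without NRG-1 1-hour replicate 3 (log2 0.44, adjusted *P* = 0.0124). *ZFP36* was also higher with EGF in 4 of 4 pairs at 1 hour, with an interval of log2 0.02 to 0.41. The change of the ligand difference with time was not tested.

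**Figure D3:**
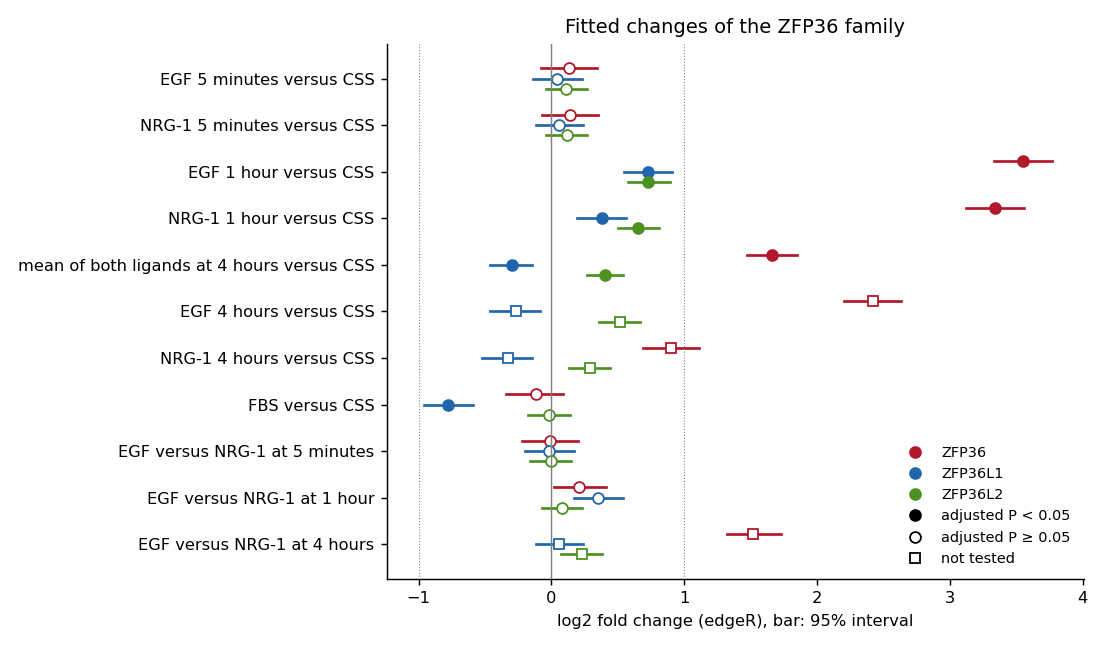
Fitted log2 fold change of each member (x axis, linear; bars are 95% intervals; dotted lines at 1 and -1) in 11 comparisons. Filled circles passed at an adjusted *P* below 0.05, open circles did not, and open squares were not tested; *ZFP36* reaches 3.55 at 1 hour of EGF, and *ZFP36L1* is the one member that passed in FBS versus CSS, at -0.78.

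The serum conditions separated a different member. *ZFP36L1* lay at 40.7, 38.0, 35.0, and 29.2 CPM in FBS, below every CSS library, and stood at 58.3% of CSS (log2 -0.78, SE 0.09, adjusted *P* = 6.82e-08). *ZFP36* lay at 8.25, 7.92, 8.80, and 7.70 CPM in FBS, a log2 difference of -0.12 (SE 0.11, interval -0.34 to 0.09, adjusted *P* = 0.351), and was lower in FBS in 4 of 4 same-numbered pairs. *ZFP36L2* lay at 22.9, 18.8, 19.4, and 15.7 CPM in FBS, overlapping CSS, with a log2 difference of -0.02 (SE 0.08, interval -0.18 to 0.14, adjusted *P* = 0.851). Thus 1 of 3 members was lower in FBS, as were 26.8% of all genes.

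The order of the groups was therefore not the same for each member. For *ZFP36* it ran from EGF 1 hour through NRG-1 1 hour, EGF 4 hours, and NRG-1 4 hours to the 5-minute groups, CSS, and FBS, and the ranges of neighbors overlapped between the 1-hour groups and among the last 4 groups. For *ZFP36L1* EGF 1 hour and NRG-1 1 hour were highest and FBS lowest, each apart from its neighbor, while the 5 groups between overlapped with the next in order. For *ZFP36L2* every group overlapped with the next in order, and the 1-hour groups were again highest.

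The genes whose log2 CPM most resembled that of each member over the 32 libraries, with batch means removed, were sought among 12018 genes. For *ZFP36* they were *IER2* (Pearson *r* = 0.990), *JUNB* (0.987), *CSRNP1* (0.984), *EGR3* (0.984), and *KLF10* (0.974), all nuclear or transcription-linked early response genes. *IER2* ran from 46.9 CPM in CSS to 239 and 219 CPM at 1 hour and 132 and 66.5 CPM at 4 hours (EGF and NRG-1, respectively). For *ZFP36L1* they were *AMOTL2* (0.980), a Hippo pathway adaptor, *SLFN5* (0.970), the phosphatase gene *DUSP8* (0.964), the AP-1 gene *FOSL2* (0.961), and *ZNF281* (0.955). *SLFN5* was also low in FBS, at 22.3 CPM against 48.0 CPM in CSS. For *ZFP36L2* they were *ZNF408* (0.959), *KLF16* (0.958), *IER2* (0.954), *CSRNP1* (0.951), and *JUNB* (0.946), so 3 genes were on the lists of both *ZFP36* and *ZFP36L2* and none was shared with *ZFP36L1*. The 32 points share groups and ligands, so the correlations are descriptions.

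Because the members rose together at 1 hour, the 250 bases before their annotated start sites were read from RefSeq (GRCh38.p14). The table held 1 start for *ZFP36*, 2 starts for *ZFP36L1*, and no entry for *ZFP36L2*. Motifs were searched on both strands in 35116 promoter windows of the same length. The CArG box, searched by name, was in 1.16% of them and TGANTCA, an AP-1 motif, in 6.57%. The CRE core TGACG was in 21.2% and the EGR motif GTGGGCG in 8.53%. The ETS motif CCGGAAG was in 8.52%, and the TATA box, searched as TATAAA, was in 10.7%. The *ZFP36* window (chr19:39406597-39406846, plus strand) held no exact match to any of these and had a GC content of 76.4%. It does hold TATAAG, a near match to TATAAA that the search did not count. The *ZFP36L1* window at chr14:68793417-68793666 (minus strand) held TGACG on both strands in overlap, starting 52 and 49 bases before the start site. The 2 are shown for contrast, 5′ to 3′ on the strand of the gene, with the overlapping matches in capitals.
ZFP36: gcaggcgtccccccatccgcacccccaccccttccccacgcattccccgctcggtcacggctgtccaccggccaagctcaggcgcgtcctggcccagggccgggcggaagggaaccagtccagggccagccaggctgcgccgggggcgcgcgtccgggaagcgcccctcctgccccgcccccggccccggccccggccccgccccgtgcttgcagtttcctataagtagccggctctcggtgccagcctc
ZFP36L1: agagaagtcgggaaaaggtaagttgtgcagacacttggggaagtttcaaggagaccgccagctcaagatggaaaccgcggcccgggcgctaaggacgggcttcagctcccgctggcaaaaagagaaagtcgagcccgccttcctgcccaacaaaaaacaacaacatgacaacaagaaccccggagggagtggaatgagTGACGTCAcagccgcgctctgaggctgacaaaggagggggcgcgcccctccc
The other *ZFP36L1* window (chr14:68796244-68796493, minus strand) held 1 TGACG, starting 147 bases before its start site. The letters show neither binding nor use of a start site.

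The partners of the family in decay were followed with lists of genes. The deadenylase list held 16 genes, of enzymes that remove the poly(A) tail and of their partners, such as scaffolds and adaptors. In the mean of both ligands at 4 hours versus CSS, 2 were higher and 8 lower, beside 25.1% and 26% of all genes. The median log2 fold change of the list was -0.13, beside -0.02 over all genes. In batch 2 alone 2 of the 16 passed, and calls over all genes fell from 8697 to 3873. *CNOT8*, a catalytic subunit gene of CCR4-NOT, fell (log2 -0.49, SE 0.09, adjusted *P* = 4e-05), as did *PAN2*, of the PAN2–PAN3 deadenylase (log2 -0.47, SE 0.07, adjusted *P* = 2.39e-06). *CNOT6L* (0.15) and *CNOT11* (0.10) rose by little. The scaffold *CNOT1*, which ZFP36 contacts, did not pass (log2 -0.18, adjusted *P* = 0.166). At 1 hour of EGF only the antiproliferative adaptors *TOB2* (log2 0.45, adjusted *P* = 0.000297) and *TOB1* (log2 -0.31, adjusted *P* = 0.00307) passed, in opposite directions, where 6% of all genes were higher and 3.51% lower. With the replicate block 4 of the 16 passed, and calls over all genes rose from 1617 to 2536.

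Of 21 decapping and exosome genes, which act after deadenylation, 5 were higher and 4 lower at 4 hours, beside the 25.1% and 26% of all genes, with a median of 0.01. In batch 2 alone 2 of the 21 passed, where calls over all genes fell from 8697 to 3873. *EXOSC4* (log2 0.45) and the decapping scaffold *EDC4* (0.44) rose, and the decapping enzyme *DCP2* (-0.26) and *LSM14A* (-0.20) fell. *DCP1B* was the 1 gene of this list that passed at 1 hour of EGF (log2 -0.23, adjusted *P* = 6.35e-05). With the replicate block 4 passed, where calls over all genes rose from 1617 to 2536. Of 9 other binders of AU-rich or related elements, 3 were higher and 3 lower at 4 hours, beside the 25.1% and 26% of all genes, with a median of 0.03. In batch 2 alone 1 of the 9 passed, beside the same fall over all genes from 8697 to 3873. *HNRNPD*, which encodes AUF1, rose (log2 0.31, adjusted *P* = 0.00206), as did *KHSRP* (0.20, adjusted *P* = 0.0327), while *TIA1* fell (-0.39, adjusted *P* = 0.00524). *ZC3H12A*, which encodes the endonuclease Regnase-1, fell at 1 hour of EGF from 27.4 to 14.7 CPM (log2 -0.89, SE 0.10, adjusted *P* = 3.24e-08). With NRG-1 at 1 hour it fell to 11.6 CPM (log2 -1.23 versus CSS, SE 0.10, adjusted *P* = 7.75e-11). The difference between EGF and NRG-1 at 1 hour did not pass in edgeR (log2 0.34, SE 0.10, adjusted *P* = 0.106). *ZC3H12A* was still lower at 4 hours (log2 -0.52, adjusted *P* = 2.98e-06). *RC3H1*, which encodes roquin-1, rose at 1 hour of EGF (log2 0.36, adjusted *P* = 0.000289).

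A list of 19 kinase, phosphatase, and 14-3-3 genes was drawn up for the phosphorylation of the ZFP36 proteins, and includes upstream regulators such as *DUSP1*. Of the 19, 6 were higher and none lower at 1 hour of EGF, beside 6% and 3.51% of all genes. At 4 hours 12 were higher and 1 lower, beside 25.1% and 26% of all genes, with a median of 0.24 beside -0.02 over all genes. In batch 2 alone 1 of the 19 passed at 1 hour of EGF and 7 at 4 hours. Calls over all genes fell there from 1617 to 491 and from 8697 to 3873, respectively. *DUSP1*, whose product turns off p38, rose at 1 hour (log2 0.57, SE 0.09, adjusted *P* = 5.02e-05), and so did *MAPKAPK2*, which encodes the kinase MK2 (log2 0.51, SE 0.07, adjusted *P* = 4.76e-06). At 4 hours the 14-3-3 genes *SFN* (log2 1.17, SE 0.13, adjusted *P* = 1.49e-08) and *YWHAH* (log2 0.66, SE 0.04, adjusted *P* = 5.41e-13) rose, and *MAPK14*, which encodes p38α, fell (log2 -0.33, SE 0.05, adjusted *P* = 7.13e-06). *SFN* was scarce, at 1.08 CPM in CSS.

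Of 25 mRNAs known for AU-rich elements, 18 had enough counts to be tested. The others, *TNF*, *IL6*, *CXCL1*, *CXCL2*, *CXCL3*, *CSF2*, and *PTGS2*, never exceeded 3 counts in a library. These targets could not be followed in these cells, whereas the cytokine genes *CXCL8* and *LIF* were tested. The heptamer TATTTAT was in the 3′ UTR of 24 of the 25, against 32.0% of 19053 coding genes; the list was drawn up for such elements. At 1 hour of EGF, 6 were higher and 3 lower, beside 6% and 3.51% of all genes, with a median of 0.09 beside -0.01. *FOS* rose from 0.619 to 140 CPM (log2 7.85, SE 0.36, adjusted *P* = 2.24e-16). *CXCL8*, which encodes interleukin-8, was among the 6 and went from 0.0212 to 1.67 CPM. It was near the floor in CSS and met the count filter through the groups where it was high. The call of *CXCL8* is therefore not read as a result. *BIRC3* (log2 -0.76, adjusted *P* = 4.94e-05) and *PIM1* (log2 -0.64, adjusted *P* = 2.92e-05) fell. At 4 hours 10 were higher and 2 lower in the mean of both ligands, beside 25.1% and 26% of all genes, with a median of 0.30 beside -0.02. In batch 2 alone 4 of the 18 passed, where calls over all genes fell from 8697 to 3873. *FOS* remained above CSS (log2 5.20, SE 0.33, adjusted *P* = 1.34e-13), and *PIM1* (log2 -0.55) and *E2F1* (log2 -0.36) were lower. *CXCL8* and *PLAU* were both among the 10. *PLAU* never exceeded 9 counts in a library. It lay at 0.00635 CPM in CSS, and at 0.0857 CPM with EGF and 0.0898 CPM with NRG-1 at 4 hours. It thus met the count filter through the groups where it was high, so its call is not read as a result and its fold is not given.

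**Figure D4:**
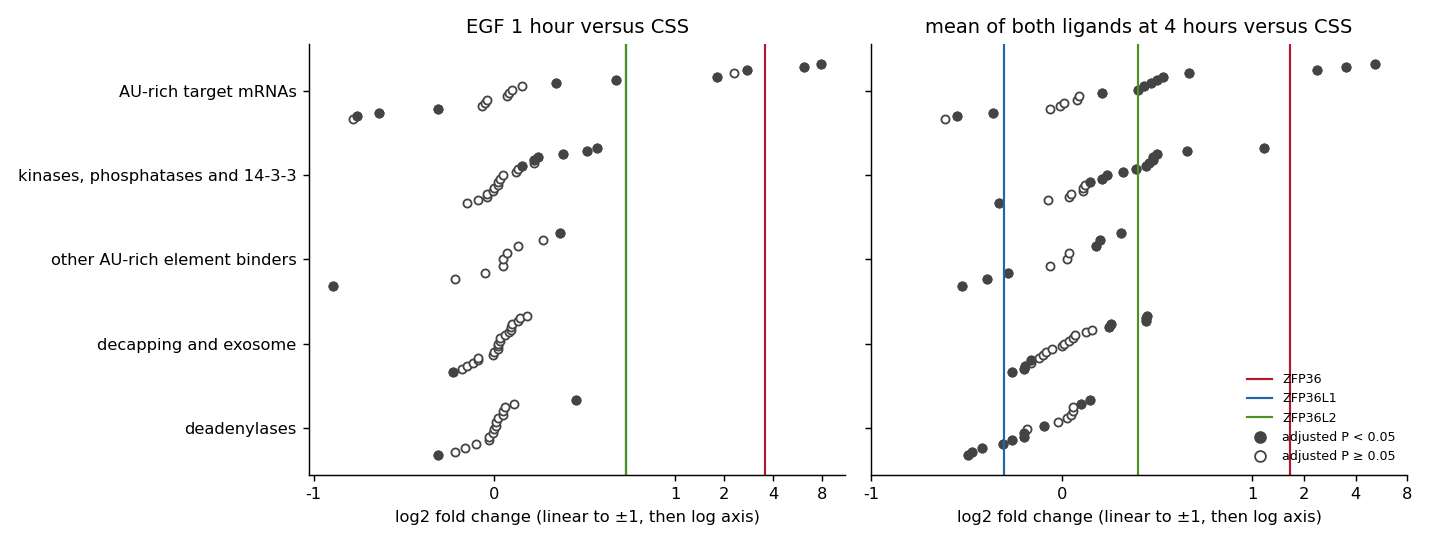
Fitted log2 fold change (x axis, linear between -1 and 1 and logarithmic beyond) of the tested genes of 5 pathway lists at 1 hour of EGF (left) and in the mean of both ligands at 4 hours (right), each versus CSS; filled points passed at an adjusted *P* below 0.05. Vertical lines mark the family members, with *ZFP36L1* and *ZFP36L2* on top of each other at 0.73 on the left; most list genes lie between -1 and 1, left of *ZFP36*.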

How the data were processed

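RNA was measured in 32 libraries. According to the submitters' processing notes and the study's methods, the authors trimmed reads with Trimmomatic 0.36 and quantified genes with RSEM and STAR 2.7.0f on hg19. They deposited an expected count and a TPM value per gene and library, without pooling replicates; 11.2% of the expected counts were not whole numbers. Coordinates and sequences here are from GRCh38 and were not used for the counts.

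Expected counts were rounded. After a filter for 5 or more counts in 3 or more libraries, the 8 groups and 2 batches were fitted together with edgeR 4.0.16 under R 4.3.3, using TMM factors, followed by quasi-likelihood tests and Benjamini-Hochberg adjustment over all 16995 genes tested. SEs come from the fitted log2 fold change and its F statistic. Alternatives were DESeq2 1.42.0, limma 3.58.1 on log2(TPM + 1) and log2(TPM + 0.1), stricter and absent filters, single batches, and each library left out. No replicate pair agreed within sampling noise. The scripts were tested on simulated data. Same-numbered libraries deviated together in 112 of 112 pairs (*r* from 0.13 to 0.57), and the labels give them a shared batch. For each list, the 2 largest rises and 2 largest falls among called genes were named, at 1 hour of EGF and at 4 hours; *CNOT1*, the levels of *IER2* and *SLFN5*, the singled-out markers of other cell types, and the scarce targets were added after their values were seen. The members and lists were chosen with earlier results of these data known. Pooled over genes, the spread between replicates was wider than counting error. This need not hold for each gene, least of all for scarce ones. Depth was 63822654 to 92401724 counts per library. Protein sequences were not used here.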

Additional observations from a re-analysis of the deposited data

Results flagged for a closer look

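*ZFP36* in NRG-1 5-minute replicate 4 was 8.37 CPM, while the other 3 libraries of that group held 10.2 to 10.4 CPM, a gap wider than Dixon's 95% limit for 4 samples. This was 1 of 24 combinations of gene and group examined, and chance gives about 1 in 20.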

How the results depend on the processing

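In every alternative run, *ZFP36* passed at 1 hour with either ligand (log2 3.45 to 3.67 for EGF and 3.14 to 3.48 for NRG-1), in the 4-hour mean versus CSS (1.48 to 1.69), and in the fall from 1 to 4 hours (-1.93 to -1.64), and *ZFP36L1* passed in FBS versus CSS (-0.99 to -0.60). The untested *ZFP36* differences moved by more than the replicate spread in some settings: EGF 4 hours versus CSS was 2.23 with limma on log2(TPM + 1), with or without a filter; EGF versus NRG-1 at 4 hours was 1.79 in batch 1 and 1.28 in batch 2; and NRG-1 4 hours versus CSS was 0.75 in batch 1, 1.04 in batch 2, and 0.73 with limma.

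Calls changed mainly in *ZFP36L1*. EGF versus NRG-1 at 1 hour passed with at least 10 counts in every library (0.37), in batch 1 (0.48), in DESeq2 (0.36), and with the replicate block (0.36), and ran from 0.31 to 0.44 with 1 library left out. NRG-1 1 hour versus CSS lost its call in batch 2 (0.43) and with limma on log2(TPM + 0.1) (0.31) or log2(TPM + 1) (0.30), and ran from 0.29 to 0.43 with 1 library left out. In batch 2 alone, *ZFP36L1* in the 4-hour mean (-0.29) and *ZFP36L2* in the fall from 1 to 4 hours (-0.23) and at 1 hour of NRG-1 (0.50) did not pass. The replicate block changed no other call of the members. Signs turned only in differences that never passed. In EGF versus NRG-1 at 5 minutes, batch 2 gave 0.02, 0.02, and 0.01 for *ZFP36*, *ZFP36L1*, and *ZFP36L2*, and leaving out 1 library gave -0.08 to 0.05, -0.08 to 0.03, and -0.07 to 0.04. *ZFP36L2* at 1 hour between ligands was -0.02 in batch 1, and, with 1 library left out, *ZFP36L1* at 5 minutes of EGF ran from -0.02 to 0.09 and *ZFP36L2* in FBS from -0.09 to 0.04 (limma on TPM gave down to -0.22). The causes were not tested.

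Counts over all genes moved more. With the replicate block, genes passing rose from 1617 to 2536 at 1 hour of EGF, from 1144 to 2082 at 1 hour of NRG-1, and from 180 to 478 between ligands at 1 hour. In batch 2 alone they were 491, 278, and 10, against 1346, 937, and 218 in batch 1 alone, which has as many libraries. In FBS 8959 passed (8106 in batch 1 and 4514 in batch 2), in the 4-hour mean 8697 (8777 and 3873), and from 1 to 4 hours 9004 (9118 and 4423). With only the groups compared, 2515 passed at 1 hour of EGF and 106 between ligands; without a batch term, 729 passed at 1 hour of NRG-1 and 97 between ligands; limma gave 759 at 1 hour of NRG-1. At least 10 counts in every library left 185 of 293 DEGs at 1 hour of EGF and 105 of 168 at 1 hour of NRG-1. Called genes at 4 hours in batch 1 and batch 2 alone were 8 and 2 of the deadenylase list (10 in both batches together), 11 and 2 decapping and exosome genes (9), 6 and 1 other binders (6), 12 and 7 kinase, phosphatase, and 14-3-3 genes (13), and 11 and 4 AU-rich targets (12). The block raised the called genes of the deadenylase list at 1 hour of EGF from 2 to 4.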
